A study of Mus musculus with 4 samples.

Results

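The cells described here are those that the authors' deposited annotation names Monocyte_3, 326 of the 34447 cells in the series. They were taken by that name alone, and the 6 genes Adgre4, Ace, Cd300e, Treml4, Adamdec1 and Lilra5 were taken as its markers. The data were single-cell RNA counts of sorted live CD45+ cells from tumours of YUMM1.7-OVA RTT, a mouse melanoma line that carries the model antigen ovalbumin and resists targeted therapy. All tumours grew in Rag2-/- mice, in which no mature T or B lymphocytes develop. All mice received OT-1 CD8+ T cells, which recognise ovalbumin, by adoptive transfer (ACT) on day 7, and tumours were collected on day 10, 72 h later. There were 4 libraries, 1 per group, each a pool of 3 tumours. In CTRL the cancer cells carried an mCherry control vector, and in IRF3/7 they overexpressed Irf3 and Irf7. In COX2i the mice received the COX2 inhibitor celecoxib by mouth every day, and in COX2i + 5-AZA they received celecoxib and injections of 5-azacytidine, an inhibitor of DNA methyltransferases.

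Patrolling (non-classical) monocytes are a blood monocyte subset that crawls along the inner wall of vessels, held there by the integrin LFA-1, and takes up debris from the endothelium. They develop from classical Ly6C-high monocytes, and in mice they depend on the nuclear receptor Nr4a1 and on the factors Cebpb and Klf2. Classical monocytes, in contrast, enter inflamed tissue through Ccr2 and can become inflammatory monocytes or macrophages there. In tumours, patrolling monocytes are known for taking up tumour material within vessels and for attracting NK cells.

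The promoters of 3 markers are shown because these genes mark the class and each promoter held a match to at least 1 of the motifs searched. Adgre4 encodes an adhesion receptor of the EGF-TM7 family, Cd300e an activating receptor of the CD300 family and Lilra5 an activating leukocyte immunoglobulin-like receptor. Each sequence is the RefSeq reference (build GRCm38.p6), read 5′ to 3′ on the strand of the gene, from 250 bases before the start site to 50 after it, and capitals mark motif matches.
Adgre4 (chr17:55749734-55750033, plus strand): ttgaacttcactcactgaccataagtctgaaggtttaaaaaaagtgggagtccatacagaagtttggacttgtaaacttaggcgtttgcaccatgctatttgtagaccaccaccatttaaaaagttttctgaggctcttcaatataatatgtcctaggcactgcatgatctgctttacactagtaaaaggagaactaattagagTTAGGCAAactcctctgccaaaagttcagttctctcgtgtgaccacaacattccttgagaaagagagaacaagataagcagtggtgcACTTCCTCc
Cd300e (chr11:115061990-115062289, minus strand): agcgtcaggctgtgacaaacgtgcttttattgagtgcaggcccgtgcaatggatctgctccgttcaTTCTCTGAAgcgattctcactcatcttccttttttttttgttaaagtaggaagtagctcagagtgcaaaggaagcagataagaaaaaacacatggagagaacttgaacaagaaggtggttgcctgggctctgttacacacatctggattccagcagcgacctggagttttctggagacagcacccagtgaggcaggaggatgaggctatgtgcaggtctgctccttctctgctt
Lilra5 (chr7:4237504-4237803, plus strand): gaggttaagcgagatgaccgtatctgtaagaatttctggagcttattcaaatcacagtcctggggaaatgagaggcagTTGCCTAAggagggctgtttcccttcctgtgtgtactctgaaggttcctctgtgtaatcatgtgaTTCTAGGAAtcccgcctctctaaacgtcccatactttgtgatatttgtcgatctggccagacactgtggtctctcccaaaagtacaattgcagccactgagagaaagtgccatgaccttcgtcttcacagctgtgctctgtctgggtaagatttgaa

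In the Adgre4 promoter the capitals mark a C/EBP match from -46 to -39 relative to the start site and a PU.1 match from 42 to 49 after it. In the Cd300e promoter they mark a GAS match from -184 to -176. In the Lilra5 promoter they mark a C/EBP match from -172 to -165 and a GAS match from -107 to -99. Motifs were searched on both strands, and any match to the letters counted. The C/EBP letters TTGCNNAA were found in 10.8% of 32851 promoters of the same length, PU.1 GAGGAAGT in 3.20% and GAS TTCNNNGAA in 8.30%. KLF CCACACCC was found in 3.56%, the NR4A site AAAGGTCA in 1.51% and the interferon-stimulated response element (ISRE) in 3.44%. Of the 14 genes that were markers or led the class, 11 matched a promoter entry. The 12 promoters of these 11 genes included 2 with C/EBP, 2 with KLF (Heg1 and Pglyrp1), 1 with PU.1, 3 with GAS (Cd300e, Lilra5 and Heg1), and 0 with the NR4A or ISRE letters. A match describes letters in the window and says nothing of binding. Of the markers without a sequence here, Ace lies on chromosome 11 at 105967945 to 105989964, Treml4 on chromosome 17 at 48264295 to 48275360 and Adamdec1 on chromosome 14 at 68563380 to 68582095 (GRCm38), and all 6 markers are protein-coding genes.

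The deposited values were UMI counts (unique molecular identifiers, 1 per captured probe ligation), and the 4 libraries held 26356819 to 78722763 UMIs over 6329 to 10032 cells. Monocyte_3 cells summed to 4168 UMIs in CTRL, 14796 in IRF3/7, 74785 in COX2i and 569462 in COX2i + 5-AZA. Levels below are in CPM, the UMIs of a gene per 1000000 UMIs of the cells taken, and differences are log2 ratios of CPM. An interval after a value is an exact 95% interval that covers counting error only. The probe barcodes tell the libraries apart, and of 29259 bead barcodes 4830 were held by cells of more than 1 library. Of the 326 Monocyte_3 cells, 99 shared a bead barcode with a cell of another library, and none of those partner cells was itself Monocyte_3. The share was 29.4% of the class in COX2i and 29.3% in COX2i + 5-AZA, near the 28.7% and 28.1% of all cells there. In CTRL 1 of 2 class cells and in IRF3/7 6 of 10 shared one, where 28.8% and 31.7% of all cells did. With 1 library per group there was no test between conditions, and with 2 cells in CTRL and 10 in IRF3/7 the levels there are given as values with wide intervals.

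Monocyte_3 was rarest in CTRL, intermediate in IRF3/7 and COX2i, and most frequent in COX2i + 5-AZA. CTRL held 2 of 8953 cells, a share of 0.0223% (exact Clopper-Pearson 95% interval 0.00271 to 0.0807%). IRF3/7 held 10 of 6329 cells, 0.158% (0.0758 to 0.290%). COX2i held 34 of 9133 cells, 0.372% (0.258 to 0.520%). COX2i + 5-AZA held 280 of 10032 cells, 2.79% (2.48 to 3.13%), which was 85.9% of all cells of the class. The intervals of CTRL and IRF3/7 overlapped, as did those of IRF3/7 and COX2i, while the interval of COX2i + 5-AZA lay above the other 3. The log2 ratio of shares was 2.91 for COX2i + 5-AZA against COX2i and 6.97 against CTRL.

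The order changed when shares were taken of monocytes only, that is of Monocyte_3 together with Infl_Mono (inflammatory monocytes) and Monocyte_1. Monocyte_3 then made up 1.44% of 139 monocytes in CTRL, 0.218% of 4596 in IRF3/7, 6.09% of 558 in COX2i and 5.98% of 4684 in COX2i + 5-AZA. The log2 ratio of COX2i + 5-AZA to COX2i was thus -0.03 within monocytes. The number of Monocyte_1 cells was 44, 251, 394 and 3640 in the same order of libraries, and that of Infl_Mono cells 93, 4335, 130 and 764. Within monocytes the log2 ratio of IRF3/7 to CTRL was -2.73, the opposite direction of that among all cells, but it rested on 2 cells in CTRL and the intervals overlapped (0.175 to 5.10% in CTRL and 0.104 to 0.400% in IRF3/7). The intervals of COX2i (4.26 to 8.41%) and COX2i + 5-AZA (5.32 to 6.70%) overlapped as well.

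**Figure D1:**
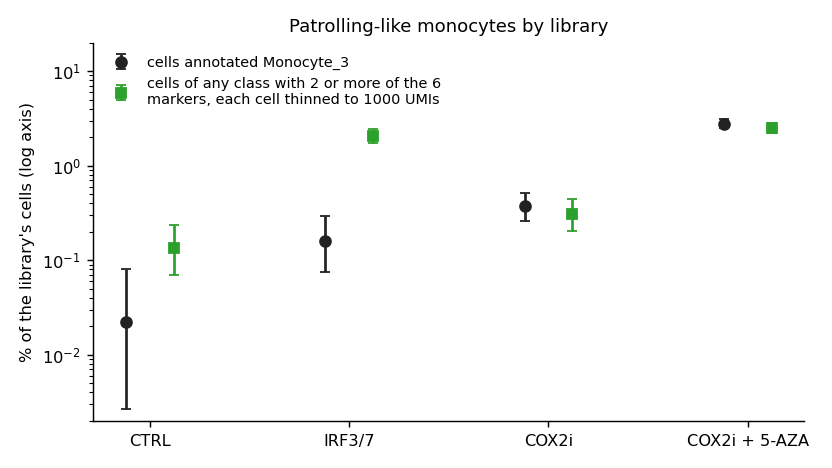
Share of all cells of each library, in percent on a log axis, that the authors annotated as Monocyte_3 and that held at least 2 of the 6 markers after each cell was thinned to 1000 UMIs. Points are the 4 libraries and bars are exact Clopper-Pearson 95% intervals. The annotated share goes from 0.0223% in CTRL to 2.79% in COX2i + 5-AZA, while the marker share of IRF3/7 (2.07%) lies near that of COX2i + 5-AZA (2.53%).

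The class was named by the authors from the expression of these same cells, so the levels of its markers are a description and no independent check of the name. All 6 markers had their highest level in Monocyte_3 among the 14 classes with at least 20 cells in COX2i and among the 16 such classes in COX2i + 5-AZA. Ace, the angiotensin-converting enzyme, stood at 1919 CPM in CTRL, 1825 in IRF3/7, 1377 in COX2i and 1152 in COX2i + 5-AZA. Its next highest class in COX2i + 5-AZA was Myofibrobl, non-immune cells left after the sort, at 8.36-fold lower (7.36 to 9.50). Adgre4 stood at 1199.6 CPM in CTRL, 946 in IRF3/7, 495 in COX2i and 439 in COX2i + 5-AZA, where it exceeded Infl_Mono 15.6-fold (12.4 to 19.7). Treml4, a receptor of the TREM family found on patrolling monocytes, stood at 1439.5, 1014, 575 and 483 CPM in the same order and exceeded Infl_Mono 7.49-fold (6.29 to 8.92) in COX2i + 5-AZA. The levels of these 3 genes were highest in the libraries with the fewest cells, where 5 to 8 UMIs (CTRL) and 14 to 27 UMIs (IRF3/7) carried each value.

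Cd300e stood at 239.9 CPM in CTRL (1 UMI), 406 in IRF3/7, 334 in COX2i and 597 in COX2i + 5-AZA. In COX2i + 5-AZA it was 44.7-fold (33.8 to 60.1) above the next class, TAM_H2Ab1 (tumour-associated macrophages led by MHC class II). In IRF3/7, however, TAM_H2Ab1 held 739 CPM of Cd300e (702 to 777), and the interval of Monocyte_3 (149 to 883) spanned that value. Lilra5 was at 0 UMIs in CTRL and stood at 270.3 CPM in IRF3/7, 147 in COX2i and 225 in COX2i + 5-AZA, 10.6-fold (8.05 to 14.0) above TAM_H2Ab1 in the last. Adamdec1, a secreted metalloprotease, was at 0 UMIs in CTRL and IRF3/7, where 3 UMIs would have been 720 and 203 CPM, at 40.1 CPM in COX2i (3 UMIs) and at 159.8 CPM in COX2i + 5-AZA. The 6 markers together summed to 4798 CPM in CTRL, 4461 in IRF3/7, 2969 in COX2i and 3056 in COX2i + 5-AZA, so that their level did not follow the share of the class.

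**Figure D2:**
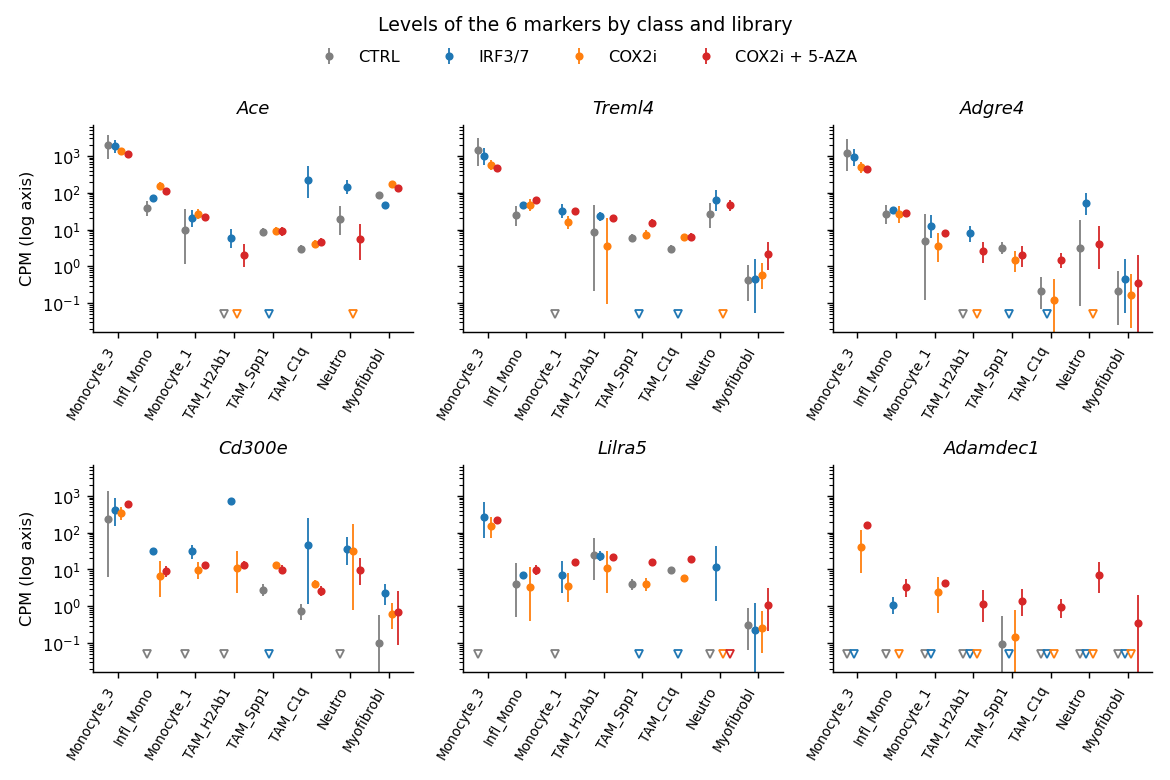
Level of each of the 6 markers in CPM on a log axis, with 1 panel per gene, in Monocyte_3, 2 other monocyte classes, 3 macrophage classes, neutrophils and Myofibrobl cells. Colours are the 4 libraries, bars are exact Poisson 95% intervals and open triangles are sums of 0 UMIs. In COX2i and COX2i + 5-AZA every marker is highest in Monocyte_3, and in IRF3/7 Cd300e is higher in TAM_H2Ab1 (739 CPM).

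Single cells of the class were shallow and held only part of the marker set. In COX2i + 5-AZA, a UMI of Ace was found in 65.4% of cells, of Cd300e in 59.6%, of Treml4 in 51.8%, of Adgre4 in 46.4%, of Lilra5 in 33.9% and of Adamdec1 in 15% of cells. After thinning each cell to 1000 UMIs these shares were 53.2%, 43.9%, 34.6%, 32.5%, 19.6% and 10.7%. In Monocyte_1 of the same library the thinned shares were between 0.69% (Adamdec1) and 3.02% (Treml4), and in Infl_Mono between 0.13% (Adamdec1) and 7.07% (Ace). Of the 326 cells, 305 held at least 1 marker, 265 at least 2, 180 at least 3 and 4 all 6, and 21 held none. Adgre4 and Ace were found together in 101 of 280 cells of COX2i + 5-AZA, against 85.0 from the product of their shares, and Cd300e and Treml4 in 85 against 86.5.

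The median Monocyte_3 cell held 2084 UMIs in CTRL, 1411 in IRF3/7, 2143 in COX2i and 1769 in COX2i + 5-AZA. In COX2i and COX2i + 5-AZA this was the lowest median of any class with at least 20 cells, below NK cells at 3099 and 2606. It was 0.286 and 0.293 of the median of all cells of those libraries. The study's methods state that cells with more than 1000 detected genes were kept, but over the genes deposited 7 of 10 Monocyte_3 cells of IRF3/7, 6 of 34 of COX2i and 86 of 280 of COX2i + 5-AZA had 1000 or fewer. With those cells left out the share of IRF3/7 was 0.0527% (0.0109 to 0.154%, 3 cells) in place of 0.158%, and that of COX2i + 5-AZA 2.01%. Only 8 of the 326 cells had more than 2000 detected genes, and all 8 came from COX2i + 5-AZA. The part of depth in the assignment of cells to the class was not tested.

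Cells outside the class also held its markers. Outside Monocyte_3, 69 cells in CTRL, 394 in IRF3/7, 139 in COX2i and 522 in COX2i + 5-AZA held at least 2 of the 6 markers. In IRF3/7, 307 of these 394 cells were Infl_Mono, whereas in COX2i + 5-AZA 73 of 522 were. The median depth of these cells was high, from 3844 UMIs in IRF3/7 to 10130 in CTRL, so the count was repeated with each cell thinned to 1000 UMIs, which left out 1 cell each in CTRL and IRF3/7, 3 in COX2i and 5 in COX2i + 5-AZA, none of them Monocyte_3. Thinned cells with at least 2 markers, in any class, then made up 0.134% of cells in CTRL, 2.07% in IRF3/7, 0.307% in COX2i and 2.53% in COX2i + 5-AZA. Of these, 122 of 131 in IRF3/7 and 79 of 254 in COX2i + 5-AZA lay outside Monocyte_3. The difference between IRF3/7 and COX2i + 5-AZA in annotated cells, a log2 ratio of 4.14, was 0.29 in thinned marker-positive cells.

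The marker-positive Infl_Mono cells of IRF3/7 also held more of the other patrolling genes than the Infl_Mono cells without a marker, a set of cells that was chosen after their values were seen. The 20 patrolling genes that are not markers summed to 10720 CPM in the 307 marker-positive Infl_Mono cells and to 7382 CPM in the 3254 without a marker. In the 10 Monocyte_3 cells of that library they summed to 19870 CPM. Nr4a1 stood at 1217 CPM in the marker-positive Infl_Mono cells, at 591 in those without a marker and at 1757 in Monocyte_3. In IRF3/7 their interferon genes did not separate in that way, with the type I-skewed list at 24363 CPM in the marker-positive and 25629 CPM in the marker-free Infl_Mono cells, against 9259 CPM in Monocyte_3. In COX2i + 5-AZA the 73 marker-positive Infl_Mono cells reached Nr4a1 2119 CPM, Itgal (the alpha chain of LFA-1) 1198 and Eno3 (muscle enolase) 222, against 2297, 1209.9 and 219.5 CPM in Monocyte_3. Other patrolling genes were lower in these cells than in Monocyte_3, with 12734 (12368 to 13108) against 15694 CPM (15370 to 16023) for the 20-gene sum, 1068 against 1356 for Gngt2 and 147 against 239 for Pou2f2. In that library the type I-skewed list did separate, at 6782 CPM in the marker-positive and 12361 in the marker-free Infl_Mono cells, against 3187 in Monocyte_3.

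Monocyte_3 was then set against Infl_Mono and Monocyte_1, taken at equal weight, in the 2 libraries with at least 20 cells of the class, COX2i and COX2i + 5-AZA. Because the authors clustered on these same values, the ratios are a description of the class and were not tested. Among 7328 genes with enough UMIs, 436 (5.95%) were at least 2-fold higher in Monocyte_3 on the mean of both libraries with the same sign in each, and 475 (6.48%) were at least 2-fold lower. With size factors in place of total UMIs, 344 genes were higher and 585 lower, so that the share of higher genes among those called was 37.0% in place of 47.9%. The leading genes were Cd300e (mean log2 ratio 5.60 ± 0.28, SD over the 2 libraries, which also differ in treatment), Adgre4 (5.27 ± 0.57), Ace (4.48 ± 0.10), Heg1 (4.22 ± 0.49) and Treml4 (3.91 ± 0.70). Nxpe4 (3.56 ± 0.23), Hpgd (3.54 ± 0.63), Pglyrp1 (3.46 ± 0.32), Eno3 (3.44 ± 0.17), Grk3 (3.35 ± 0.18), Spn (3.30 ± 0.04) and Ccdc88c (3.05 ± 0.16) followed. In Monocyte_3 of COX2i, Hpgd and Ccdc88c rested on 6 UMIs each, Pglyrp1 on 7 and Heg1 on 10. Heg1 is a receptor at endothelial junctions, Hpgd degrades prostaglandins, Pglyrp1 binds bacterial peptidoglycan and Spn is the sialomucin CD43, a surface marker of patrolling monocytes.

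The genes with the lowest ratios were Mmp19 (-3.47 ± 0.25), Siglec1 (-3.38 ± 0.03), Ccl7 (-3.28 ± 2.11), Ch25h (-3.25 ± 0.40), Usp18 (-3.22 ± 1.54), Dhrs3 (-3.13 ± 0.24), Fn1 (-3.00 ± 0.07) and Cxcl10 (-2.98 ± 1.31). The first 6 of these had 1 UMI each in the 34 COX2i cells. Because sums of 0 were set to 3 counts, a gene at 0 UMIs in these cells could rank above an otherwise equal gene at 1 UMI. Siglec1, Usp18 and Cxcl10 are induced by interferons, Ccl7 is a chemokine that attracts monocytes, and Fn1 (fibronectin) is high in classical monocytes and macrophages.

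Genes of the patrolling programme were higher in Monocyte_3 nearly throughout. Of the 23 list members with a value, 20 were called higher and 0 lower (background 5.95% and 6.48%), with a median log2 ratio of 2.07 against 0.02 over all genes. This list holds 4 of the 6 markers and genes that define such clusters, so its direction is no independent evidence. Nr4a1 stood at 1679 CPM in CTRL, 1757 in IRF3/7, 1658 in COX2i and 2297 in COX2i + 5-AZA, and its ratio against the other monocytes was 2.07 ± 0.52. In COX2i + 5-AZA Infl_Mono held 579 CPM of Nr4a1 and Monocyte_1 308. Cebpb, on which patrolling monocytes depend, was the most abundant list member by UMIs at 5998, 3109, 3437 and 3236 CPM in the 4 libraries, but its ratio of 0.60 ± 0.12 stayed under 2-fold. The Fc receptor Fcgr4, another gene of the list, was likewise under 2-fold at 0.79 ± 0.07. Gngt2, a G protein subunit, had a ratio of 2.09 ± 0.04 with 1919, 2298, 1096 and 1356 CPM in the class.

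Of 21 transcription factors of the patrolling state with a value, 6 were higher and 1 lower, where 5.95% and 6.48% of all genes were. The same shares over all genes apply to every list count against the other monocytes. The higher ones were Nr4a1, Klf2 (1.03 ± 0.23), Pou2f2 (2.63 ± 0.26), Tcf7l2 (1.21 ± 0.02), Hes1 (1.42 ± 0.67) and Id3 (1.79 ± 0.03), and the lower one was Nr4a3 (-1.30 ± 0.72), a relative of Nr4a1. The myeloid factors Spi1 (0.45 ± 0.21), Irf8 (0.15 ± 0.16) and Zeb2 (0.35 ± 0.04) had ratios under 2-fold.

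None of the classical monocyte list was called higher against the other monocytes. Of 14 with a value, 7 were lower and 0 higher, with a median of -1.04. Chil3 (-1.78 ± 1.37), F13a1 (-2.64 ± 0.65), Vcan (-2.67 ± 1.43), Ccl9 (-1.99 ± 0.24) and the LPS co-receptor Cd14 (-1.66 ± 0.80) were lower. Ccr2, the chemokine receptor of classical monocytes, was not, with a mean ratio of -0.02 ± 0.58. Its level in Monocyte_3 was 480 CPM in CTRL (2 UMIs), 1014 in IRF3/7, 1230.2 in COX2i and 441 in COX2i + 5-AZA. The classical markers Ly6c1 and Ly6c2, like Cx3cr1 and Ear2 of the patrolling list, were not analysed here.

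**Figure D3:**
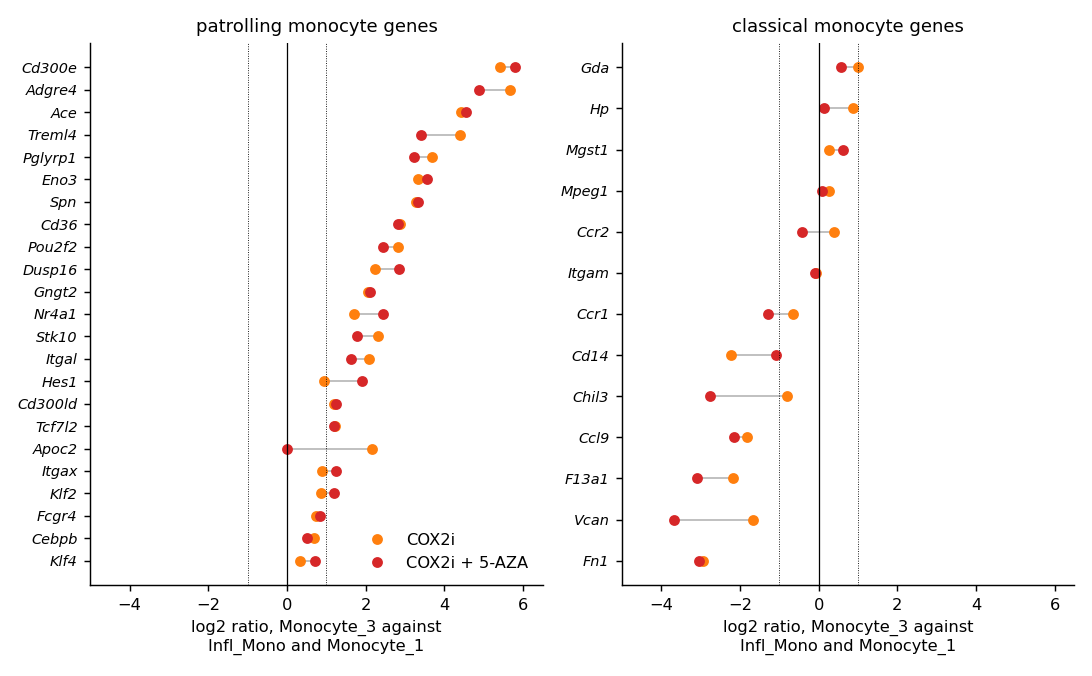
Log2 ratio of CPM in Monocyte_3 against the other monocyte classes for each gene of the patrolling and classical lists, with COX2i in orange and COX2i + 5-AZA in red. Dotted lines mark 2-fold. On the mean of both libraries 20 of 23 patrolling genes lie past 2-fold on the right, and most of the classical genes drawn lie left of 0. Not all classical genes are drawn.

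Of the adhesion genes, the LFA-1 alpha chain was higher while the Mac-1 alpha chain was not. Of 24 with a value, 8 were higher and 1 lower, with a median of 0.47. Itgal was at 1199.6, 1419, 1591 and 1209.9 CPM in the 4 libraries, and its ratio was 1.85 ± 0.32, whereas the shared beta chain Itgb2 stood at 0.55 ± 0.21 and Itgam, the alpha chain of Mac-1, at -0.08 ± 0.02. Pecam1 (2.77 ± 0.32), Icam2 (1.75 ± 0.10), Adgre5 (1.64 ± 0.36), Itgax (1.06 ± 0.24) and Cxcr4 (1.05 ± 0.35) were also higher. Pecam1 and Icam2 are also expressed by endothelial cells, and of 3 genes that define those cells, Cdh5 and Kdr were at 0 UMIs in Monocyte_3 of all 4 libraries and Egfl7 at 1 UMI, in COX2i + 5-AZA. Msn (moesin) was at 0.76 ± 0.13.

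Among 12 genes of survival and growth factor signalling, 4 were higher and 1 lower. Csf1r, the receptor that keeps patrolling monocytes alive, had a ratio of 0.59 ± 0.43, and Mcl1 one of 0.10 ± 0.07. Csf3r (1.21 ± 0.30), Bcl2 (1.48 ± 0.75), Fas (1.25 ± 0.31) and Bcl2a1d (1.59 ± 0.06) were higher and Bcl2l1 (-1.55 ± 0.11) was lower. Bcl2a1d belongs to a family of near-identical copies, and its value is uncertain to that extent.

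Paired receptors, which come in activating and inhibiting forms, included more higher than lower genes. Of 28 with a value, 10 were higher and 3 lower, with a median of 0.26. The higher ones were Cd300a (1.40 ± 0.58), Cd300e, Cd300ld (1.21 ± 0.03), Treml4, Trem3 (1.95 ± 0.78), Sirpb1a (1.21 ± 0.03), Clec4a1 (1.42 ± 0.59), Clec4a3 (1.44 ± 0.30), Siglece (1.31 ± 0.84) and Klra2 (1.06 ± 0.16). The lower ones were Siglec1, Trem2 (-1.79 ± 0.43) and Treml2 (-2.05 ± 2.19). Klra2, Sirpb1a and the Clec4a genes have close paralogs, so their values are uncertain where probes bind a copy. The adaptors Fcer1g (0.25 ± 0.23) and Tyrobp (0.23 ± 0.19), through which activating forms signal, were near the other monocytes. All 6 Fc receptor genes lay within 2-fold, with a median of -0.41. The high-affinity receptor Fcgr1 was at -0.95 ± 0.02.

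Summed, the tumour macrophage genes other than Apoe were lower in Monocyte_3 than in both other monocyte classes of each library. Without Apoe, a choice made after seeing the data, the tumour macrophage list summed to 2879 CPM in Monocyte_3 of CTRL (12 UMIs), 1960.0 in IRF3/7 (29 UMIs), 2487 in COX2i and 2202 in COX2i + 5-AZA. In Infl_Mono the sums were 28097, 5745, 18318 and 7439.7 CPM in that order, and in Monocyte_1 13379, 8812, 8999 and 11476 CPM. With Apoe the list was also lower in CTRL (6718 against 63510 and 20689 CPM), but in IRF3/7 it summed to 13517 CPM in Monocyte_3, 11531 in Infl_Mono and 14792 in Monocyte_1, and 171 of those 200 UMIs in Monocyte_3 were Apoe. Over COX2i and COX2i + 5-AZA, of 18 tumour macrophage genes with a value, 15 were lower and 1 (Ctsk, 1.13 ± 1.02, from 3 and 4 UMIs) was higher, with a median of -1.95. The complement genes C1qa (-2.55 ± 0.38) and C1qb (-2.39 ± 0.14) were among them, and so were Mrc1 (-2.20 ± 0.33) and Spp1 (-2.11 ± 0.01). Apoe, which carries lipid and is abundant in macrophages, was at 3839 CPM in CTRL, 11557 in IRF3/7, 2153 in COX2i and 690.1 in COX2i + 5-AZA. The 10 cells of IRF3/7 thus held the most Apoe. Of lipid handling genes, the scavenger receptor Cd36 was higher (2.85 ± 0.03) and the cholesterol exporter Abca1 lower (-1.59 ± 0.24), within 4 higher and 3 lower of 15. Resident macrophage genes counted 3 lower and 0 higher of 4, and complement genes 5 lower and 1 higher of 14.

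Interferon genes of the 2 kinds differed in their place among the monocytes. Of 18 type I-skewed genes, 10 were lower in Monocyte_3 and 0 higher, with a median of -1.22. Isg15, a ubiquitin-like modifier, had a ratio of -1.98 ± 0.40, Rsad2 (viperin) one of -2.39 ± 0.59 and Ifit1 one of -2.61 ± 1.84. Irf7, the master factor of the type I response, was nearer at -0.23 ± 0.10. Against Infl_Mono alone the median of the list was -2.60, against Monocyte_1 alone -0.40, and against macrophages 1.20, so its direction depended on the comparator. Of 21 interferon-gamma-skewed genes, 4 were lower and 0 higher, with a median of -0.04. Gbp2 (-0.03 ± 0.05), Irf1 (0.47 ± 0.15), Gbp5 (0.23 ± 0.51) and Cd274 (PD-L1, 0.25 ± 0.42) were within 2-fold of the other monocytes, while Cxcl9 was lower (-1.91 ± 0.29). Gbp, Ifit and Serpina3 genes have close copies in the genome, so their values are uncertain where probes bind more than 1 of them.

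Genes of antigen presentation lay close to the other monocytes. MHC class II genes counted 0 higher and 0 lower of 9, with Cd74 at 0.71 ± 0.45, H2-Aa at 0.59 ± 0.36 and H2-Ab1 at 0.46 ± 0.37. Their summed level was between those of the other monocyte classes. In COX2i + 5-AZA it was 32151 CPM in Monocyte_3, 19112 in Infl_Mono and 43367 in Monocyte_1, and in COX2i it was 36946, 13558 and 48502. Of 20 MHC class I genes, the non-classical H2-Q6 (1.59 ± 0.26) and H2-Q7 (1.84 ± 0.38) were higher and the loading chaperones Calr (-1.02 ± 0.13) and Pdia3 (-1.12 ± 0.26) lower, while H2-K1 stood at 0.55 ± 0.10 and B2m at 0.38 ± 0.16. H2-Q6 and H2-Q7 are near-identical copies and cannot be told apart with certainty here. Of the 6 genes that define conventional dendritic cells, 8 UMIs were found in 280 cells of COX2i + 5-AZA. A longer list of 14 dendritic cell genes summed to 216 CPM there, against 171 in Infl_Mono and 186 in Monocyte_1, with 2 genes higher and 1 lower of 5 with a value.

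Chemokines were mostly low. Of 15 with a value, 9 were lower and 1 higher, with a median of -1.52. Ccl5, which attracts T and NK cells, was the higher one at 1.25 ± 0.42, with 0 UMIs in CTRL and IRF3/7, 361 CPM in COX2i and 486 in COX2i + 5-AZA. Ccl2 (-1.86 ± 0.01), Ccl12 (-2.32 ± 0.13), Cxcl9, Cxcl10 and Cxcl16 (-1.52 ± 0.03) were lower. Among 20 genes of T cell stimulation and checkpoints, 2 were higher (Ccl5 and Havcr2, which encodes TIM-3, 1.18 ± 0.31) and 7 lower, among them Il15 (-1.42 ± 0.42) and Il18 (-1.06 ± 0.10). Of 17 cytokines and alarmins, Tnf was higher (1.10 ± 0.57) and 8 were lower, among them Thbs1 (-2.13 ± 0.01), S100a10 (-1.71 ± 0.20) and S100a8 (-2.73 ± 0.51). Il1b, the most abundant of that list, was under 2-fold at 0.59 ± 0.09.

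Genes of prostaglandin metabolism were examined because celecoxib blocks prostaglandin synthesis. Of 12 with a value, 2 were higher and 1 lower, with a median of 0.00, beside 5.95% and 6.48% of all genes. Hpgd was at 0 UMIs in CTRL, 406 CPM in IRF3/7 (6 UMIs), 80.2 in COX2i (29.4 to 175, from 6 UMIs) and 28.1 in COX2i + 5-AZA (16.1 to 45.6, from 16 UMIs). The intervals of COX2i and COX2i + 5-AZA overlapped. The prostaglandin E2 receptor Ptger4 had a ratio of 1.48 ± 1.61, with 53.5 CPM in COX2i and 154 in COX2i + 5-AZA. Ptgs2, which encodes COX2 itself, stood at -0.78 ± 1.27, with 334 and 214 CPM in Monocyte_3 of these libraries. Of 14 cell cycle genes 1 was lower and 0 higher, with a median of -0.01.

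**Figure D4:**
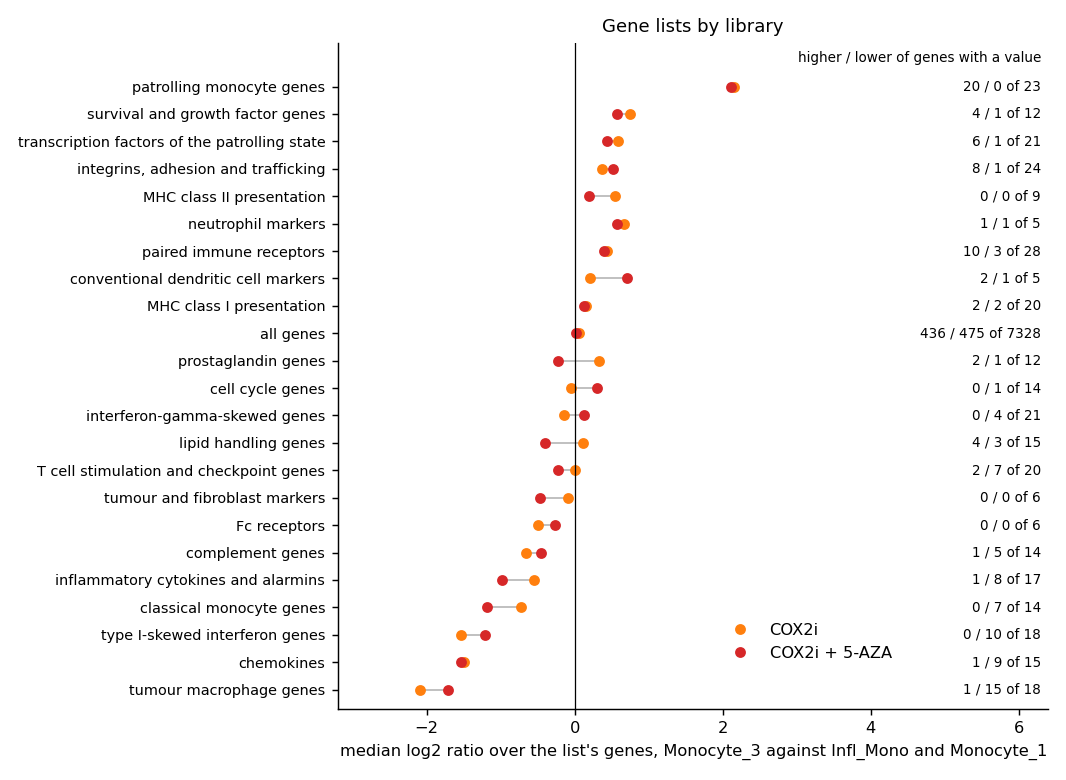
Median log2 ratio of Monocyte_3 against the other monocyte classes for each gene list, with COX2i in orange and COX2i + 5-AZA in red. The numbers beside each list count its genes called higher and lower. The patrolling list has the highest median of the lists drawn (2.07 on the mean of both libraries), and the tumour macrophage list one of -1.95.

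Genes of other cell types were counted in the class and compared by CPM, since the classes differed in depth. The 6 defining T cell genes were at 0 UMIs in Monocyte_3 of all 4 libraries. The 5 NK cell genes summed to 0, 0, 1 and 20 UMIs in CTRL, IRF3/7, COX2i and COX2i + 5-AZA, and in the last their level was higher in Monocyte_3 (35.1 CPM, 21.5 to 54.2) than in Monocyte_1 (16.2, 14.5 to 18.0), although its interval overlapped that of Infl_Mono (19.0, up to 23.9). The 5 neutrophil genes summed to 1, 2, 2 and 122 UMIs, and in COX2i + 5-AZA to 214 CPM (178 to 256) in Monocyte_3 against 409.7 in Monocyte_1 and 4649.8 in Infl_Mono. A longer list of 10 neutrophil genes did not lie lower. Of its 5 genes with a value, 1 was higher and 1 lower against the other monocytes, with a median log2 ratio of 0.27. The 5 non-immune genes summed to 0, 1, 23 and 41 UMIs. In COX2i their level was 308 CPM (195 to 461) in Monocyte_3, 352 in Monocyte_1 and 323 in Infl_Mono, both within that interval, and in COX2i + 5-AZA it was 72.0 CPM (51.7 to 97.7) against 110.4 and 79.4. The 7 macrophage genes summed to 3530 CPM in COX2i and 2074 in COX2i + 5-AZA, against 17937 and 7106 in Infl_Mono and 7889 and 9700 in Monocyte_1. In IRF3/7 they summed to 12774 CPM in Monocyte_3, 9939.5 in Infl_Mono and 12323 in Monocyte_1, but without Apoe to 1217 (18 UMIs), 4153 and 6343 CPM, so that this order rested on Apoe. The 6 classical monocyte marker genes, a shorter set than the classical list above, summed to 9173 CPM in Monocyte_3 of COX2i against 9595 in Infl_Mono and 5367 in Monocyte_1, and in COX2i + 5-AZA to 8905 against 14245 and 5109.5. In IRF3/7 they summed to 10543 against 16392 and 6576, so that Monocyte_3 lay above Monocyte_1 in these 3 libraries, but in CTRL it was at 3359 CPM (1836 to 5636, from 14 UMIs) against 4114 in Monocyte_1. Without the cells that held an NK, T, neutrophil or non-immune marker, which left 16 cells in COX2i and 159 in COX2i + 5-AZA, the patrolling median was 1.90.

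Across the 4 libraries the interferon genes of Monocyte_3 took different orders. The type I-skewed list summed to 960 CPM in CTRL (261 to 2457), 9259 in IRF3/7 (7774 to 10946), 2327 in COX2i (1994 to 2699) and 3187 in COX2i + 5-AZA (3042 to 3337). IRF3/7 thus lay above the other 3 libraries beyond counting error, and Infl_Mono (25349 CPM) and Monocyte_1 (11559 CPM) were highest in that library too. Within IRF3/7, Irf7 stood at 3041 CPM in Monocyte_3 against 239.9 in CTRL, 669 in COX2i and 878 in COX2i + 5-AZA. Irf7 belongs to the type I-skewed list, and the cancer cells of IRF3/7 overexpressed it. It gave 45 of the 137 list UMIs in Monocyte_3 of IRF3/7, and the part of cancer cell RNA in them was not tested. Isg15 was at 0 UMIs in CTRL, 338 CPM in IRF3/7 (110 to 789, from 5 UMIs), 308 in COX2i and 476 in COX2i + 5-AZA, and the IRF3/7 interval spanned the last 2 values.

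The interferon-gamma-skewed list had its highest sum in COX2i + 5-AZA. It summed to 960 CPM in CTRL (261 to 2457), 4258 in IRF3/7 (3272 to 5448), 7502 in COX2i (6894 to 8149) and 12257 in COX2i + 5-AZA (11971 to 12548), and no interval overlapped another. Gbp2, a guanylate-binding protein, was at 0 UMIs in CTRL, 406 CPM in IRF3/7, 2969 in COX2i and 3430 in COX2i + 5-AZA. The 2 cells of CTRL held 4 UMIs of this list and 4 of the type I list. MHC class II genes summed to 14635, 23250 (20857 to 25841), 36946 and 32151 CPM in the 4 libraries. For these genes Infl_Mono held 9012, 19717, 13558 and 19112 CPM over the same libraries, and Monocyte_1 between 43367 and 48502 CPM.

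**Figure D5:**
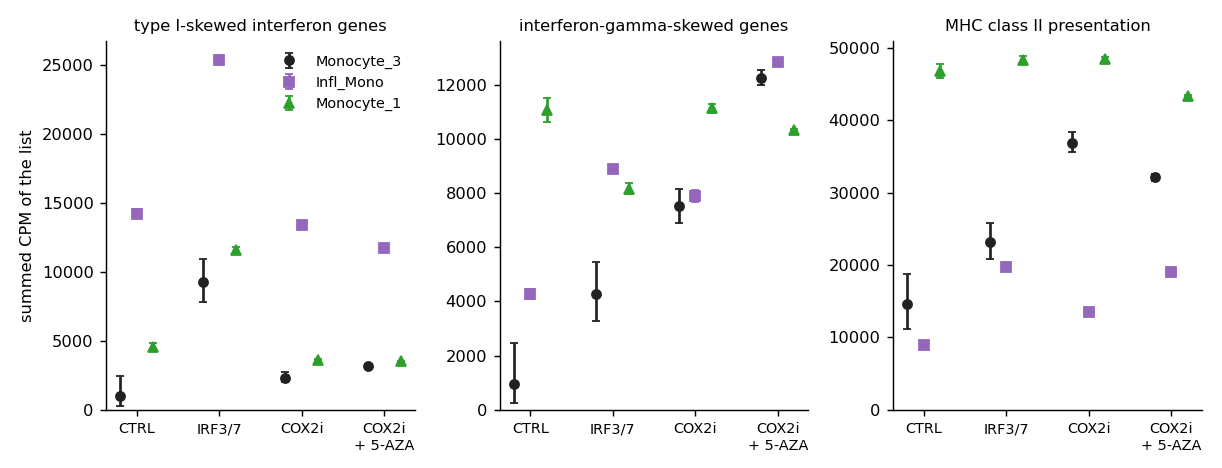
Summed CPM of the type I-skewed, interferon-gamma-skewed and MHC class II lists in Monocyte_3, Infl_Mono and Monocyte_1, by library, with exact Poisson 95% intervals. In Monocyte_3 the type I sum is highest in IRF3/7 (9259 CPM) and the interferon-gamma sum in COX2i + 5-AZA (12257 CPM).

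COX2i + 5-AZA and COX2i were the libraries with enough cells to be set against each other gene by gene within Monocyte_3. Among 5275 genes with enough UMIs, 580 (11%) were at least 2-fold higher in COX2i + 5-AZA and 273 (5.18%) at least 2-fold lower, with a median log2 ratio of 0.01. These are ratios of 2 libraries, not a test of the treatments. The sums behind them were unequal, with 74785 UMIs in COX2i against 569462, and a gene at 1 UMI in COX2i could be called higher. With size factors in place of total UMIs the median moved to 0.13 and 716 genes were higher and 190 lower, so that 79.0% of calls were higher in place of 68.0%. With no minimum of UMIs 677 were higher and 1412 lower, so that 32.4% of calls were higher, and the direction of most calls thus depended on that minimum.

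The patrolling genes differed little between the 2 libraries, with a log2 ratio of summed UMIs of 0.08 (0.00 to 0.17), and the 6 markers gave 0.04 (-0.16 to 0.25). Among the 21 interferon-gamma-skewed genes with a value, 10 were at least 2-fold higher in COX2i + 5-AZA (background 11%), and the list summed to 0.71 (0.58 to 0.84). Cd274 was at 1.75 (1.12 to 2.45), Serpina3g at 1.76 and Gbp5 at 1.06 (0.60 to 1.55). The same sum was 0.71 in Infl_Mono and -0.11 in Monocyte_1, and the median over the list was 0.95 in Monocyte_3, 0.65 in Infl_Mono and 0.13 in Monocyte_1. The type I-skewed list counted 4 higher of 15 and summed to 0.45 (0.23 to 0.69), against -0.19 in Infl_Mono and -0.04 in Monocyte_1. MHC class I genes summed to 0.27 (0.17 to 0.37) and MHC class II genes to -0.20 (-0.26 to -0.14). Il1b, a pyrogenic cytokine, was 1.19 higher (0.96 to 1.43), with 2059 CPM in COX2i and 4697 in COX2i + 5-AZA.

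The summed macrophage, lipid and classical lists were lower in COX2i + 5-AZA, but most of their genes were within 2-fold, and the macrophage difference rested largely on Apoe. Over all genes 11% were higher and 5.18% lower. The tumour macrophage list summed to -0.68 (-0.85 to -0.51), with a median of 0.01 and 2 genes higher and 4 lower of 16, but without Apoe to -0.18 (-0.40 to 0.05). The lipid handling list summed to -0.75 (-0.90 to -0.59), with a median of -0.19 and 1 higher and 3 lower of 13, and without Apoe to -0.37 (-0.56 to -0.17). The classical list summed to -0.38 (-0.50 to -0.26), with a median of -0.44 and 1 higher and 4 lower of 13. Apoe, which is in the first 2 sums with 161 UMIs in COX2i and 393 in COX2i + 5-AZA, was at -1.64 (-1.91 to -1.37) and Ccr2 at -1.48 (-1.83 to -1.12). The level of the non-immune genes differed in the same direction, 308 against 72.0 CPM, and its part in these ratios was not tested. The 4 genes with the lowest ratios were Ahnak at -2.41 (-3.04 to -1.76), Fn1 at -2.13 (-2.75 to -1.48), Apoc2 at -2.10 (-2.71 to -1.47) and Hopx at -2.09 (-2.73 to -1.43). Each was found in 14 to 21 of the 34 COX2i cells, with at most 10 UMIs in 1 cell. Apoc2, an apolipoprotein of the patrolling list, did not differ within Infl_Mono (0.00) or Monocyte_1 (0.10), and Hopx, a homeodomain-only protein, was at 0.12 in Infl_Mono and -0.81 in Monocyte_1. Fn1 was lower in both (-2.12 and -1.95), and so was Ahnak (-0.63 and -0.56).

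The 6 genes with the highest ratios each rested on 1 UMI in COX2i, and their intervals were accordingly wide. Sums of 0 were set to 3 counts, so a gene at 0 UMIs in COX2i ranked below an otherwise equal gene at 1 UMI. S100a8, an alarmin of neutrophils and classical monocytes, was at 3.24 (0.72 to 8.56), with 72 UMIs in COX2i + 5-AZA, and its ratio was 4.40 in Infl_Mono and 3.53 in Monocyte_1. Rasa4 was at 3.14, Sirt7 at 3.12, Csrnp1 at 3.09, Serpina3f at 3.07 and P2ry13 at 3.03. S100a8 was higher in all 3 monocyte classes, while Rasa4 was at -0.15 in Infl_Mono and -0.09 in Monocyte_1, and P2ry13 was at -0.16 in Infl_Mono.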

How the data were processed

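Sorted CD45+ cells were fixed and assayed with 10x Chromium Flex probes. Per the study's methods and the submitters' processing notes, the authors used Cell Ranger 7.1.0 and the mm10 (GRCm38) probe set, filtered cells (over 1000 detected genes) and genes, and named classes from clusters of several integrated experiments. The deposited values are raw UMI counts for 12584 genes and 34447 cells, not normalised by the authors. The class names were used as given, and no doublet caller was run.

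UMIs were summed per class and library and divided by their total (CPM). Sums of 0 were set to a floor of 3 counts for ratios. Ratios needed 20 UMIs over both sets and a class of 20 cells before any cell filter (1 filter left 16 cells in COX2i), and a gene was called at 2-fold with the same sign in each library. Intervals (Clopper-Pearson, Poisson and conditional, all exact 95%) leave out any spread between tumours or libraries. Scripts were tested on simulated data. Named genes were the markers, the 12 highest and 8 lowest ratios among genes with at least 50 UMIs, the 6 highest and 4 lowest between libraries, the list members with the most UMIs, and called list members, which were named after their values were seen. The members and lists were chosen with earlier results of these data known. Other scalings, minimum counts, comparators and cell filters were tried. Python 3.11.15, numpy 2.4.6, scipy 1.17.1 and pandas 2.3.3 were used. Genes outside the deposited table were not analysed here. The values of some list members are not reported here.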

Additional observations from a re-analysis of the deposited data

Results flagged for a closer look

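Cells outside Monocyte_3 that held at least 2 of its 6 markers were a larger share than in the control library in the 3 other groups before depth was matched. They made up 0.771% (0.600 to 0.975%) of the other cells in CTRL, 6.24% (5.65 to 6.86%) in IRF3/7, 1.53% (1.29 to 1.80%) in COX2i and 5.35% (4.91 to 5.82%) in COX2i + 5-AZA. These cells differed in depth between libraries, with medians of 10130, 3844, 9215 and 7691 UMIs in that order. After each cell was thinned to 1000 UMIs, 10 such cells remained in CTRL, 122 in IRF3/7, 11 in COX2i and 79 in COX2i + 5-AZA, so that the excess of COX2i over CTRL was no longer seen.

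The type I-skewed interferon genes, summed, had a log2 ratio of 0.45 for COX2i + 5-AZA against COX2i in Monocyte_3, and ratios of -0.19 in Infl_Mono and -0.04 in Monocyte_1. The prostaglandin genes, summed, had a ratio of -0.38 in Monocyte_3 and ratios of 0.34 in Infl_Mono and 0.09 in Monocyte_1. With 1 library per group, the difference between the classes was not tested in either case.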

How the results depend on the processing

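No paired analysis was possible because each group had 1 library, so that the groups shared fewer than 2 replicate numbers. Alternatives changed 1 choice at a time, except that the share ratios with thinned cells changed both the class and the depth of each cell, and the cause of a change was not tested. Cells with at least 2 markers in place of the class gave log2 share ratios of 1.21 (COX2i against CTRL), 3.23 (COX2i + 5-AZA against CTRL), 2.02 (against COX2i) and 0.23 (against IRF3/7). The next alternatives, with at least 3 markers and with thinned cells, were chosen after seeing the data. With at least 3 markers the first, second and last of these were 1.97, 4.73 and 0.35, and with thinned cells holding at least 2 markers 1.19, 4.24 and 0.29. Of monocytes the ratios were 2.08 and 2.05 against CTRL and -0.028 against COX2i, with IRF3/7 against CTRL at -2.73. With over 1000 genes COX2i + 5-AZA against IRF3/7 was 5.26, and with over 2000 the ratios to CTRL and COX2i, at 0 cells there, were bounds of 1.36 and 1.50.

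Against the other monocytes, 436 genes were higher and 475 lower. The higher count was 689 with no minimum, 176 with a minimum of 100 UMIs and 257 against Infl_Mono alone. Higher and lower counts were 915 and 851 with all libraries summed, 818 and 880 with COX2i + 5-AZA alone, 897 and 1386 against macrophages and 263 and 285 with thinned cells. Leaving out either library gave 818 (without COX2i) to 926 (without COX2i + 5-AZA) higher and 880 to 918 lower. The patrolling median stayed positive, at 1.99 with size factors, 1.64 with a minimum of 100 UMIs, 2.22 with COX2i + 5-AZA alone, 1.91 against Infl_Mono, 2.15 against Monocyte_1, 2.80 against macrophages, 1.90 without cells holding another type's marker, 2.18 with cells with at least 2 markers, 1.71 thinned, and 2.16 to 2.22 without a library. The type I median was -1.83 summed, -1.54 to -1.31 without a library, -2.60 against Infl_Mono, -0.40 against Monocyte_1 and -1.67 thinned, and reversed to 1.20 against macrophages, as the classical median did (0.53).

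Between COX2i + 5-AZA and COX2i, the higher and lower counts were 677 and 1412 with no minimum and 78 and 16 with a minimum of 100 UMIs. They were 360 and 584 within Infl_Mono and 359 and 569 within Monocyte_1, and the lower count was 1167 within all monocytes and macrophages. The interferon-gamma sum was 0.87 with over 1000 genes, -0.11 within Monocyte_1 and 2.26 within all monocytes and macrophages. The type I sum was 0.76 without cells holding another type's marker, -0.19 within Infl_Mono, -0.041 within Monocyte_1 and 1.48 within all monocytes and macrophages. Reversed genes were Rasa4 (-0.15 in Infl_Mono, -0.085 in Monocyte_1), P2ry13 (-0.16 in Infl_Mono), Apoc2 (0.0032, 0.10 and 0.11 in Infl_Mono, Monocyte_1 and all monocytes and macrophages) and Hopx (0.12 and 0.50 in the first and the last). Thinned shares of cells were 32.5% for Adgre4, 53.2% for Ace, 43.9% for Cd300e, 34.6% for Treml4, 10.7% for Adamdec1 and 19.6% for Lilra5. Of the other values, 137 moved and 311 did not move beyond their spread or interval.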

Other observations

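Over the 51 sums of a class in a library with at least 20 cells, covering 16 classes, the genes whose level was most like that of the summed markers were Nxpe4 (Pearson r 0.774 on log2 CPM + 1), Pgs1 (0.740), Pparg (0.720), Rbms1 (0.690) and Tpst1 (0.681). The sums of 1 library share its depth and its preparation, and no p-value was computed. Spearman rho for these genes was between 0.587 (Pparg) and 0.739 (Tpst1). Pparg is a lipid-sensing nuclear receptor, and 32 of its 1286 UMIs lay in Monocyte_3. The class held 103 of 1474 UMIs of Nxpe4, 128 of 30175 of Pgs1, 312 of 82227 of Rbms1 and 63 of 13444 of Tpst1. Most UMIs of all these genes thus lay in other classes.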
